A study of Rattus norvegicus with 16 samples.

Results

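The 10 genes of the Notch pathway were followed in cells that adhered to titanium implants in rat bone: the receptors Notch1, Notch2, Notch3 and Notch4, the ligands Jag1, Jag2 and Dll1, and the target genes Hes1, Hey1 and Heyl. They were chosen by name and role, and all 10 were measured, of 17245 genes in all. Each was read from the array row that the platform annotation names with that gene alone, and from the brighter row where there were 2 of them, as for Notch3. The samples came from 8 male Sprague Dawley rats of 326 to 350 g, whose age the labels do not give. Every rat carried 2 AT-I implants (commercially pure titanium with nanoscale surface features) in one tibia and 2 AT-II implants (a microrough surface lacking such features) in the other. Implants were taken out at day 2 or day 4, with 4 rats for each day, and the RNA of the cells left on them after a rinse was hybridised to Affymetrix Rat Gene 1.1 ST arrays. Each surface had 4 arrays at each day, which made 4 groups and 16 arrays. There was no untreated bone and no other control, all groups share the surgery and the drilled site, and the 2 implants of a tibia were placed together to give enough RNA for 1 sample.

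Notch receptors are single-pass membrane proteins that bind Jagged and Delta ligands on neighbouring cells. Binding lets ADAM proteases and then gamma-secretase cut the receptor, and its intracellular domain enters the nucleus, joins the DNA-binding protein RBPJ and turns on the HES and HEY repressors. In bone, Notch signalling is known for keeping mesenchymal progenitors from differentiating early and for its part in vessels and their mural cells, in which Notch3 is a known receptor. The study asked which genes the surfaces regulate differently in the adherent cells.

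Values are RMA expression values on the log2 scale, on which a difference of 1 is a doubling. They compare samples for one gene, not one gene with another. Of 120 pairs of arrays, replicates 2 and 3 of AT-II at day 2 were the closest (SD of the difference 0.109, against at least 0.294, over the most variable bright rows). They were averaged and counted as 1 sample, which left n = 3 for AT-II day 2 and 15 samples in all. Arrays also differed in spread: their interquartile range averaged 2.67 ± 0.22 (SD, n = 4) in AT-I day 2, 3.22 ± 0.18 (n = 3) in AT-II day 2, 3.04 ± 0.35 (n = 4) in AT-I day 4 and 3.26 ± 0.16 (n = 4) in AT-II day 4. AT-I day 2 thus had the narrowest arrays, and it enters the day comparison on AT-I and the surface comparison at day 2; the part of this difference in those results was not tested beyond the alternatives named below. The labels name no cell type beyond tibial adherent cells. The mean level of 11 measured osteoblast markers was 6.81 to 8.11 in AT-I day 2, 6.93 to 8.57 in AT-II day 2, 10.16 to 10.78 in AT-I day 4 and 10.20 to 10.85 in AT-II day 4. In bulk RNA, fewer cells of a type and less RNA per cell cannot be told apart.

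The 250 bases before the transcription start are shown for 3 of the genes (RefSeq, GRCr8, 5′ to 3′ on the gene's strand). These are Hes1, a standard Notch target, Heyl, a second target, and Notch3, the receptor that changed. Capitals mark TGGGAA, the core of the RBPJ site, searched on both strands (its complement reads TTCCCA).
Hes1, chr11:84213046-84213295, minus strand: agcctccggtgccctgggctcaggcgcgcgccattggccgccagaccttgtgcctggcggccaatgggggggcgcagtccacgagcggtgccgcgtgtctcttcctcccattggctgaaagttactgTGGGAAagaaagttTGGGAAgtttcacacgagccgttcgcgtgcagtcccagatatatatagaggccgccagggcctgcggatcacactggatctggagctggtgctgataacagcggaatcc
Heyl, chr5:140793021-140793270, plus strand: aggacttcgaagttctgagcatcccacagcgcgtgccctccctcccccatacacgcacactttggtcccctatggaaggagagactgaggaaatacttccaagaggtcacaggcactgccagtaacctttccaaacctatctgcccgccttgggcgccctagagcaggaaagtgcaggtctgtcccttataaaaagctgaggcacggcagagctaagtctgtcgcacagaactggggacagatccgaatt
Notch3, chr7:11834586-11834835, minus strand: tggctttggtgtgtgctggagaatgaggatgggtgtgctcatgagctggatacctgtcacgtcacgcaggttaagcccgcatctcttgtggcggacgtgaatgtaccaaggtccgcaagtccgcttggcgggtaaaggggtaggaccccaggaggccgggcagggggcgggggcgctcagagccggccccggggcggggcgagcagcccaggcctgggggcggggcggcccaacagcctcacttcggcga

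The Hes1 window held TGGGAA at bases -123 to -118 and again at -109 to -104 from the start, both on the strand shown. Of 33469 rat promoter windows of this length, 22.1% held at least 1 match and 2.71% held 2 or more. Windows were given for 9 of the 10 genes. Those of Dll1 and Notch4 also held 2 matches each, Dll1 on opposite strands at -185 to -180 and -82 to -77, and Notch4 at -246 to -241 and -93 to -88, both on the strand opposite to the gene's. The windows of Notch1, Notch2, Notch3, Jag1, Jag2 and Heyl held none of these letters. A match is a description of the sequence, not a measured site. Other forms of the RBPJ site were not searched, so the Hes1 matches are not identified as a known pair of sites.

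**Figure D1:**
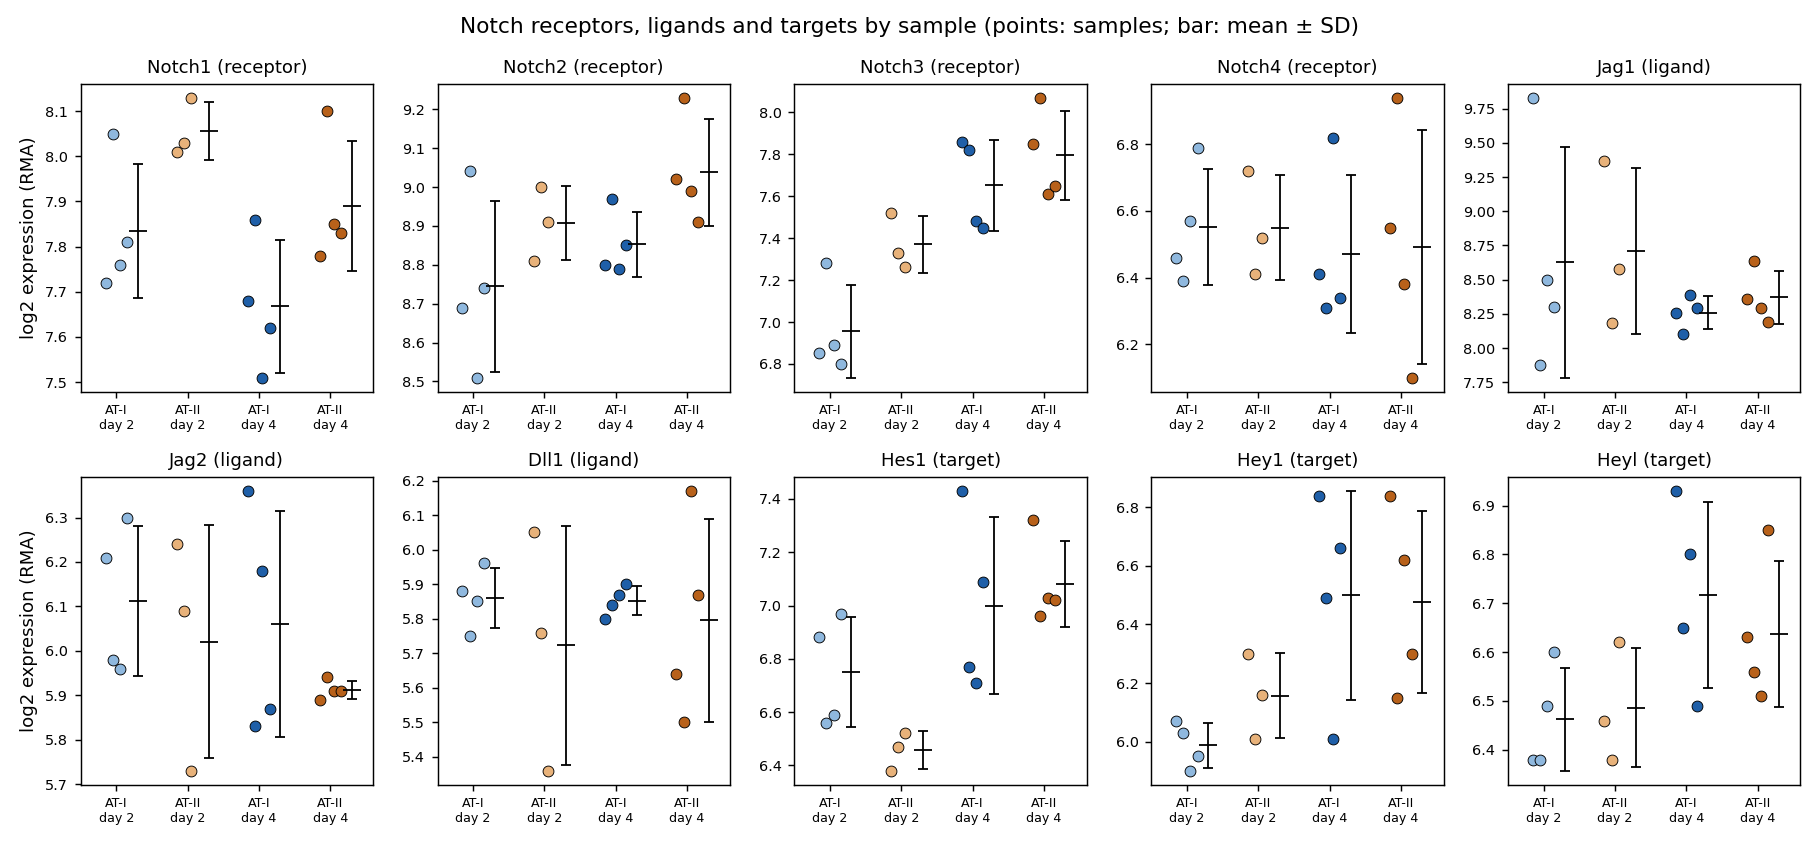
Log2 expression of the 10 genes by sample. The horizontal axis gives the 4 groups and the vertical axis the log2 value, with its own range in each panel; points are samples and bars the mean ± SD (n = 4, and 3 for AT-II day 2). The 4 AT-I day 4 samples of Notch3 lie above all AT-I day 2 samples, and Jag1 has a high sample in each day 2 group.

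Of the 10 genes, 1 rose and 0 fell from day 2 to day 4 on AT-I, where the share of all 17245 genes with a limma adjusted p under 0.05 was 11.5% (8.84% higher and 2.66% lower). That gene was Notch3. On AT-II, 0 of the 10 passed, against 3.33% of all genes (3.13% higher and 0.203% lower), and 2 of the 10 had an unadjusted p under 0.05 (2237 of all genes). The median difference of the 10 genes was 0.05 on AT-I and 0.10 on AT-II, beside -0.05 over all genes on either surface. Between the surfaces 0 of the 10 genes passed on either day, beside 0 of all 17245 genes (0.0%). With all 16 arrays counted separately, 2193 of all genes passed between the surfaces at day 2 and 0 of the 10 did, and with array weights 3713 passed and 1 of the 10, Notch3. With all 16 arrays blocked by replicate number, 3823 passed and 1 of the 10, again Notch3. The block and the fit of 16 separate arrays both count the averaged pair of AT-II day 2, replicates 2 and 3, as separate samples. Replicate numbers also did not pair all of the samples.

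Notch3 was the receptor with the widest range over the 15 samples, 1.27. In AT-I day 2 it measured 6.85, 7.28, 6.89 and 6.80, and in AT-I day 4 it measured 7.86, 7.82, 7.48 and 7.45. Every day 4 sample lay above every day 2 sample, a separation that 11.3% of all genes showed in that direction and 4.01% in the other. The rise was 0.70 ± 0.15 (SE; 95% interval 0.39 to 1.01), a fold of 1.62 from 6.95 ± 0.22 to 7.65 ± 0.22 (SD, n = 4 each; limma adjusted p = 0.006). It stayed past the threshold without any single sample, at 0.63 to 0.81 with a highest adjusted p of 0.0258. It was 0.54 with each array centred on its median (adjusted p = 0.0333), 0.53 after a repeated quantile normalization (0.0309) and 0.61 with the spread of each array in the model (0.0368).

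In AT-II day 2, Notch3 measured 7.52, 7.33 and 7.26, and in AT-II day 4 it measured 7.85, 8.07, 7.61 and 7.65. These groups did not overlap either, as in 8.74% of all genes in that direction and 7.63% in the other. The difference was 0.43 ± 0.16 (95% interval 0.09 to 0.76; n = 4 and 3) and did not pass over all genes (limma adjusted p = 0.22). The order of the group means was AT-II day 4 (7.80 ± 0.21), AT-I day 4 (7.65 ± 0.22), AT-II day 2 (7.37 ± 0.13) and AT-I day 2 (6.95 ± 0.22), and neither pair of surfaces at the same day differed past the threshold. AT-I day 2 replicate 2, at 7.28, was the one sample of its group within the range of AT-II day 2. The change with time on AT-I exceeded that on AT-II by 0.27 ± 0.22 (95% interval -0.19 to 0.73), which did not pass either (limma adjusted p = 0.924).

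The second row that the annotation names Notch3 read differently. It measured 6.68, 6.64, 7.05 and 6.55 in AT-I day 2 and 6.99, 6.34, 6.88 and 6.40 in AT-I day 4. These samples overlapped, and the difference was -0.07 ± 0.16 (limma adjusted p = 0.787, every row tested alone). On AT-II its difference between days was 0.16 ± 0.18 (adjusted p = 0.803), from 6.36 ± 0.26 (n = 3) to 6.51 ± 0.06 (n = 4). At day 2 this row was higher on AT-I than on AT-II by 0.37 ± 0.18 (adjusted p = 0.19), while the brighter row was lower there. With both rows averaged, the difference between days on AT-I was 0.31 and did not pass (adjusted p = 0.131). The rise of Notch3 therefore holds for the brighter row, and which row reads the Notch3 transcript better was not tested.

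**Figure D2:**
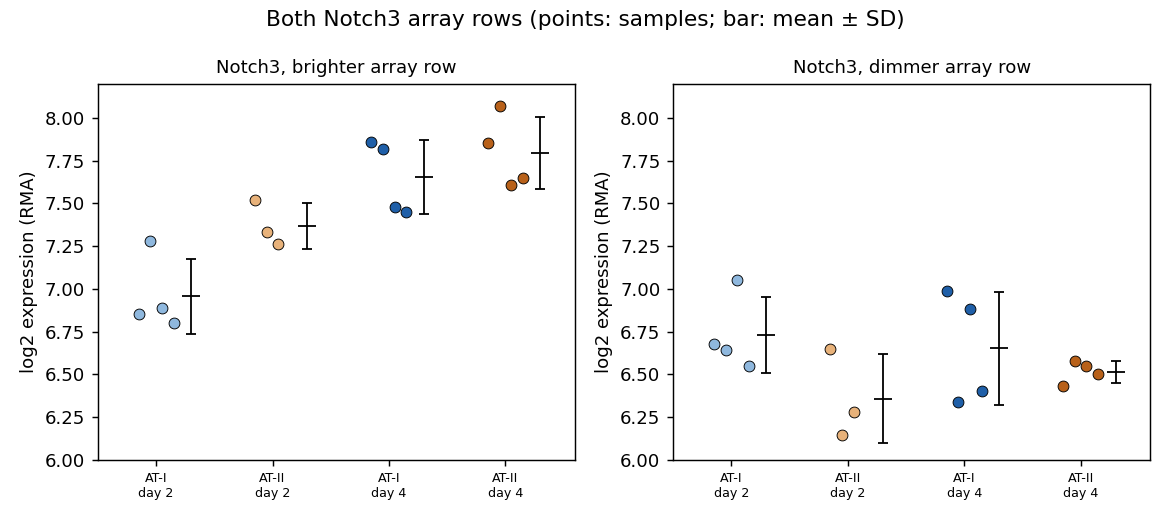
Log2 expression of both array rows named Notch3, by group on the horizontal axis, on the same vertical scale. Points are samples and bars the mean ± SD; the brighter row goes from 6.95 to 7.65 between the days on AT-I, and the dimmer row from 6.73 to 6.65.

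The 3 genes whose pattern was most like that of Notch3 over the 15 samples were Slc38a10, Cdc16 and Utrn, by the root mean square difference of sample values centred on each gene's mean. That difference was 0.13 for Slc38a10, a member of an amino acid transporter family, 0.14 for Cdc16, a subunit of the anaphase-promoting complex, and 0.15 for Utrn, which encodes utrophin. They were picked for that likeness in the same samples, so their day differences on AT-I are given as a description only: 0.72 ± 0.12 (SE) for Slc38a10, 0.66 ± 0.13 for Cdc16 and 0.79 ± 0.15 for Utrn.

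The other receptors moved little. Notch1, a receptor of many progenitor and immune cells, measured 7.72, 8.05, 7.76 and 7.81 in AT-I day 2 and 7.68, 7.86, 7.51 and 7.62 in AT-I day 4. It measured 8.01, 8.03 and 8.13 in AT-II day 2 and 7.78, 8.10, 7.85 and 7.83 in AT-II day 4. Day 4 was lower on average by the same amount on both surfaces, but samples overlapped. The difference was -0.17 ± 0.12 (95% interval -0.41 to 0.08) on AT-I and -0.17 ± 0.13 (-0.44 to 0.10) on AT-II (limma adjusted p = 0.361 and 0.656). After a repeated quantile normalization the difference on AT-I was -0.35 and passed (adjusted p = 0.0427), the 1 of 27 alternatives in which it did.

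Notch2, a receptor with known roles in skeletal cells, ranged from 8.51 to 9.04 in AT-I day 2 and from 8.79 to 8.97 in AT-I day 4. At day 4 it ranged from 8.91 to 9.23 on AT-II, above 8.81, the lowest sample of AT-II day 2, and overlapping with that group. The differences between days were 0.11 ± 0.12 on AT-I (limma adjusted p = 0.584) and 0.13 ± 0.13 on AT-II (0.762). Notch4, a receptor best known from endothelial cells, had group means within 0.08 of each other, the closest of the 10 genes. Its samples ranged from 6.10 to 6.94, both of these in AT-II day 4, and its differences between days were -0.08 ± 0.17 on AT-I and -0.06 ± 0.18 on AT-II (limma adjusted p = 0.775 and 0.948).

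Among the ligands, Jag1 had the widest range of the 10 genes, 1.95, and it came from day 2. Jag1, the Jagged ligand of bone marrow stroma and vessels, measured 9.83, 7.88, 8.50 and 8.30 in AT-I day 2 and 9.37, 8.18 and 8.58 in AT-II day 2. At day 4 it measured 8.26, 8.10, 8.39 and 8.29 on AT-I and 8.36, 8.64, 8.29 and 8.19 on AT-II. The high sample of each day 2 group was the one numbered 1, and the other samples of both days lay between 7.88 and 8.64. The difference between days was -0.37 ± 0.32 (95% interval -1.06 to 0.32) on AT-I and -0.34 ± 0.35 (-1.09 to 0.40) on AT-II (limma adjusted p = 0.466 and 0.773). Without both of these samples it was 0.03 on AT-I and -0.01 on AT-II. The same 2 samples had the lowest mean osteoblast marker level of their groups, 6.81 and 6.93. Stromal and fibroblast (7.84 and 8.45), macrophage (8.57 and 9.18), osteoclast, T cell and adipocyte marker lists were also lowest there. Neutrophil and erythroid lists were not. Endothelial and mural lists differed between the 2 samples. The endothelial list was 6.98 in the AT-I sample, within its group's 6.79 to 7.09, and 7.65 in the AT-II sample, the highest of its group. The mural list was 6.56 in the AT-I sample, the lowest of its group, and 7.13 in the AT-II sample, within its group's 6.90 to 7.28. The high Jag1 of these samples was not tested against any cell type. The labels do not say whether the 2 samples came from 1 rat.

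Jag2 and Dll1 stayed in narrow ranges. Jag2, a second Jagged ligand, ran from 5.73 to 6.36 over all samples, with differences between days of -0.05 ± 0.14 on AT-I and -0.11 ± 0.15 on AT-II (limma adjusted p = 0.826 and 0.857). Its AT-II day 4 samples lay within 5.89 to 5.94. Dll1, a Delta ligand, ran from 5.36 to 6.17, with differences of -0.01 ± 0.16 and 0.07 ± 0.17 (adjusted p = 0.98 and 0.928). Its AT-I samples lay within 5.75 to 5.96 on both days, while its AT-II samples took up the whole range.

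The target genes Hes1, Hey1 and Heyl were higher on average at day 4 on both surfaces, but none of them passed the test. Other targets of the pathway did not share this direction as a set. Of 7 measured, 3 had a positive difference on AT-I (median -0.07) and 1 on AT-II (median -0.06). The median over all genes was -0.05 on either surface. Past the threshold, 1 of these 7 rose and 1 fell on AT-I, and 0 did on AT-II. Hes1, a repressor that Notch induces directly and that other signals also regulate, measured 6.38, 6.47 and 6.52 in AT-II day 2 and 7.32, 6.96, 7.03 and 7.02 in AT-II day 4. These groups did not overlap, as in 8.74% of all genes in that direction and 7.63% in the other. The difference was 0.63 ± 0.17 (95% interval 0.27 to 0.99), a fold of 1.54 from 6.45 ± 0.07 (n = 3) to 7.08 ± 0.16 (n = 4), just short of the threshold (limma adjusted p = 0.0579). It lay between 0.47 and 0.67 under the alternatives and passed in 7 of 27 of them, among them the fit of all 16 arrays (0.62, adjusted p = 0.022) and those without AT-I day 4 replicate 1 (0.63, 0.0291) or replicate 3 (0.63, 0.0446), samples that enter through the shared estimate of spread. On AT-I, Hes1 measured 6.88, 6.56, 6.59 and 6.97 at day 2 and 7.43, 6.77, 6.71 and 7.09 at day 4. Here the samples overlapped, and the difference was 0.25 ± 0.16 (95% interval -0.08 to 0.58; limma adjusted p = 0.309). The changes on the surfaces differed by -0.38 ± 0.23 (95% interval -0.87 to 0.11), which did not pass (adjusted p = 0.924).

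Hey1, a related repressor induced by Notch in vessels and bone, measured 6.07, 6.03, 5.90 and 5.95 in AT-I day 2 and 6.84, 6.49, 6.01 and 6.66 in AT-I day 4. Only AT-I day 4 replicate 3, at 6.01, fell within the day 2 range. The difference was 0.51 ± 0.18 (95% interval 0.14 to 0.88; n = 4 each; limma adjusted p = 0.0709), and without that sample it was 0.68 and passed (adjusted p = 0.0109). It passed in 2 of 27 alternatives, this one and array weights, and ran from 0.35 to 0.68 over all of them. Removal of single samples gave 0.40 to 0.68, with a highest adjusted p of 0.185. On AT-II, Hey1 measured 6.30, 6.01 and 6.16 at day 2 and 6.84, 6.15, 6.62 and 6.30 at day 4, with overlap and a difference of 0.32 ± 0.19 (adjusted p = 0.541). Heyl, a HEY family repressor known from mural cells, ranged from 6.38 to 6.60 in AT-I day 2 and from 6.49 to 6.93 in AT-I day 4, a difference of 0.26 ± 0.12 (95% interval 0.00 to 0.52; limma adjusted p = 0.175). It ranged from 6.38 to 6.62 in AT-II day 2 and from 6.51 to 6.85 in AT-II day 4, a difference of 0.15 ± 0.13 (adjusted p = 0.709).

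**Figure D3:**
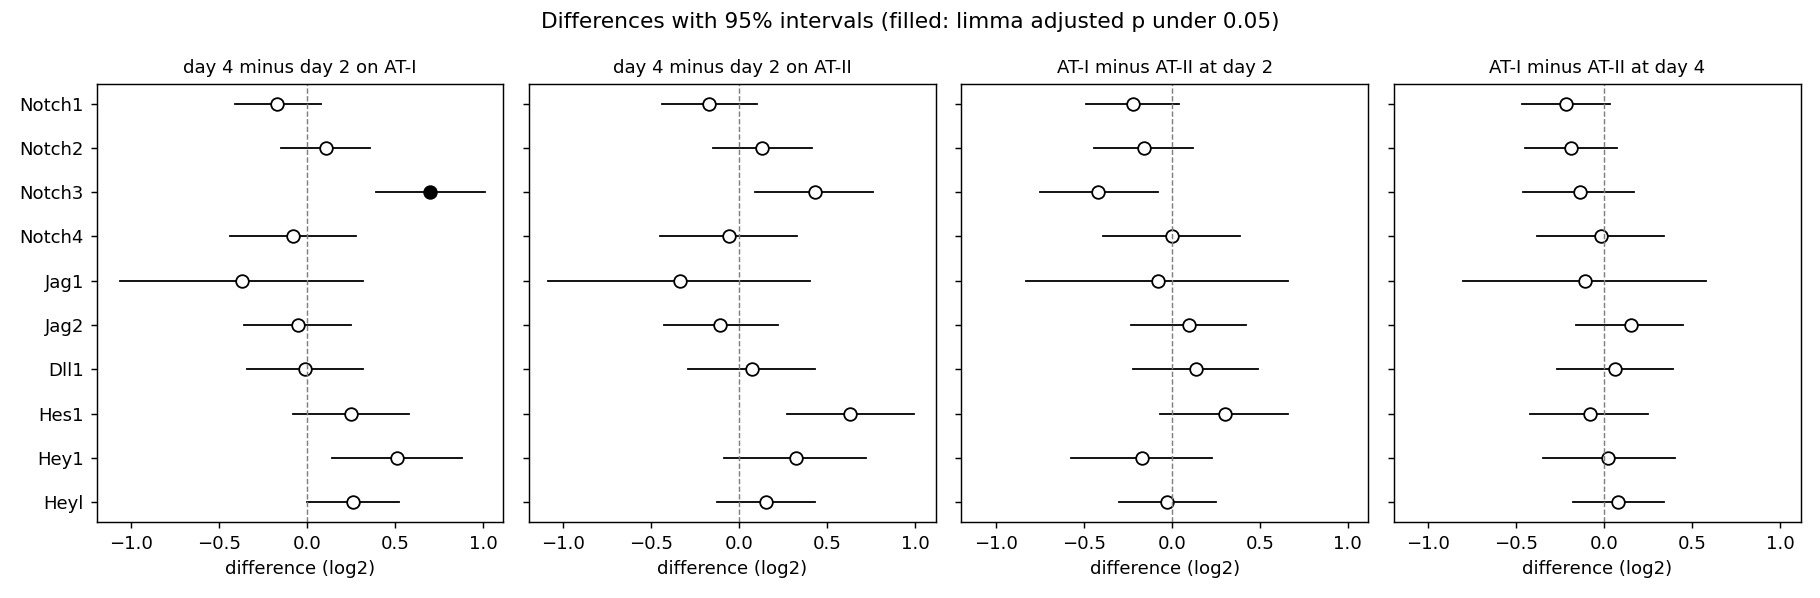
Differences of the 10 genes in 4 comparisons on the log2 scale (horizontal axis), with 95% intervals from limma. A filled point marks an adjusted p under 0.05, which Notch3 reached between the days on AT-I (0.70) and no other point did.

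The comparison of the surfaces asked whether AT-I and AT-II differ at the same day. At day 2 Notch3 was lower on AT-I by 0.42 on average (difference -0.42 ± 0.16, 95% interval -0.75 to -0.08; n = 4 and 3) and did not pass (limma adjusted p = 0.139). It passed in 2 of 29 alternatives: array weights (-0.42, adjusted p = 0.0479) and a block by replicate number with all 16 arrays (-0.41, 0.0393). Hes1 was the one gene of the 10 whose samples did not overlap between surfaces at day 2, with 6.56 to 6.97 on AT-I and 6.38 to 6.52 on AT-II. Of all genes, 20.2% were separated, 8.83% in that direction and 11.3% in the other. The Hes1 difference was 0.30 ± 0.17 (95% interval -0.07 to 0.66; limma adjusted p = 0.25). Notch1 differed by -0.22 ± 0.13 (-0.49 to 0.04), Notch2 by -0.16 ± 0.13 (-0.44 to 0.12) and Jag1 by -0.08 ± 0.35 (-0.83 to 0.66), with adjusted p of 0.24, 0.393 and 0.876 by limma. The signs for Notch1 and Notch2 turned after a repeated quantile normalization, to 0.05 and 0.07. Of all genes, 4701 had an unadjusted p under 0.05 at day 2, and 1 of the 10 did.

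At day 4 the 10 genes overlapped between surfaces in every case, and 2.2% of all genes did not (0.789% higher and 1.41% lower on AT-I). The largest differences were -0.22 ± 0.12 for Notch1 (95% interval -0.47 to 0.03) and -0.19 ± 0.12 for Notch2 (-0.45 to 0.07), both with a limma adjusted p of 0.913. Notch3 differed by -0.14 ± 0.15 (-0.46 to 0.17), Hes1 by -0.08 ± 0.16 (-0.42 to 0.25) and Hey1 by 0.02 ± 0.18 (-0.35 to 0.40). At day 4, 687 genes had an unadjusted p under 0.05 and 0 of the 10 did. These intervals do not show that the surfaces act alike.

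Of 66 other genes of the pathway, 58 were measured. On AT-I, 7 rose and 2 fell from day 2 to day 4, with a median difference of 0.07 beside -0.05 over all genes. The shares over all genes were 8.84% higher and 2.66% lower there, so these counts lie near the background. On AT-II, 3 rose and 0 fell, beside 3.13% higher and 0.203% lower over all genes, with a median of 0.00. Without AT-II day 2 replicate 1, the averaged pair, AT-II day 4 replicate 1 or AT-II day 4 replicate 3, the count on AT-II was 1. With each array centred on its median, which moves the median of all genes on AT-I to -0.21, the counts on AT-I were 5 higher and 4 lower. Between the surfaces 0 passed on either day (7 at day 2 with all 16 arrays counted separately). At day 2 the median of AT-I minus AT-II was -0.22, beside -0.09 over all genes, and 10 of the 58 differences were positive. Samples did not overlap in 8 genes lower and 1 higher on AT-I, beside 11.3% and 8.83% of all genes. After a repeated quantile normalization the median was -0.06, beside -0.03. Of 14 genes of endocytosis and turnover, 4 rose on AT-I and 2 on AT-II, and the other calls fell on ligands, corepressors and other targets; the roles were not tested against each other. Of 7 proteases and presenilin complex genes, 7 nuclear complex genes and 7 glycosylation genes, 0 passed on either surface, counts too small to set apart from the shares over all genes. The day comparisons share no samples between the surfaces, but the rats gave both.

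Numbl, a member of the Numb family of Notch inhibitors, rose on both surfaces. It measured 6.39, 6.83, 7.11 and 7.24 in AT-I day 2 and 8.05, 7.78, 7.57 and 7.97 in AT-I day 4. It measured 6.61, 7.05 and 7.32 in AT-II day 2 and 8.34, 7.84, 8.10 and 7.70 in AT-II day 4. On each surface all day 4 samples lay above all day 2 samples, as in 11.3% of all genes on AT-I and 8.74% on AT-II. The rise was 0.95 ± 0.20 on AT-I (limma adjusted p = 0.0066) and 1.00 ± 0.22 on AT-II (0.0174). On AT-II the call was lost without AT-II day 2 replicate 1 (0.81, adjusted p = 0.142), the averaged pair (1.03, 0.0635), AT-II day 4 replicate 1 (0.89, 0.0694) or AT-II day 4 replicate 3 (0.96, 0.0548).

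Nedd4 and Mib1 encode ubiquitin ligases, Nedd4 of endocytic turnover and Mib1 of the ligand-bearing cell, where it drives ligand uptake. Nedd4 measured 9.53, 9.88, 9.69 and 9.75 in AT-I day 2, 10.61, 10.45, 10.60 and 10.55 in AT-I day 4, 10.05, 10.14 and 10.15 in AT-II day 2 and 10.66, 10.57, 10.47 and 10.52 in AT-II day 4. Day 4 was alike on the 2 surfaces and day 2 was lower on AT-I without overlap. Nedd4 rose by 0.84 ± 0.10 on AT-I (limma adjusted p = 0.000104) and by 0.44 ± 0.11 on AT-II (0.0355). The call on AT-II was lost in 10 of 27 alternatives, among them centring each array (0.34, adjusted p = 0.131) and the removal of any 1 AT-II sample (0.41 to 0.47, highest adjusted p 0.182). Mib1 ranged from 7.79 to 7.91 in AT-I day 2 and from 8.30 to 8.57 in AT-I day 4, a rise of 0.62 ± 0.10 (limma adjusted p = 0.000698). On AT-II it ranged from 8.23 to 8.42 at day 2 and from 8.47 to 8.58 at day 4, a difference of 0.18 ± 0.10 (adjusted p = 0.523). At day 2 Mib1 was lower on AT-I than on AT-II without overlap (-0.48 ± 0.10), as was Nedd4 (-0.40 ± 0.11), and neither passed (adjusted p = 0.128 for both). Of all genes, 11.3% were separated in that direction and 8.83% in the other. Mib1 and Nedd4 each passed in 4 of 28 alternatives. These were all 16 arrays counted separately (adjusted p = 0.04 for both) and without AT-I day 2 replicate 2 (-0.47 and -0.46, adjusted p = 0.0487 for both). The others were array weights (0.0207 and 0.0224) and a block by replicate number (0.0244 and 0.0298). Over the alternatives Mib1 ran from -0.55 to -0.21 and Nedd4 from -0.46 to -0.23, with adjusted p up to 0.996. The difference between the surfaces in the change of Mib1, 0.44 ± 0.14, did not pass either (adjusted p = 0.924).

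Tle2, a Groucho family corepressor that HES proteins recruit, rose by 0.61 ± 0.13 on AT-I (from 6.04 to 6.66; limma adjusted p = 0.00699) and by 0.88 ± 0.14 on AT-II (adjusted p = 0.00207). It ranged from 5.88 to 6.16 and from 6.54 to 6.87 at day 2 and day 4 on AT-I, and from 5.70 to 5.99 and from 6.51 to 7.03 on AT-II. Both rises passed in all 27 alternatives. Hey2, the third HEY repressor, ranged from 5.48 to 5.72 in AT-I day 2 and from 6.08 to 6.54 in AT-I day 4, a rise of 0.78 ± 0.15 (adjusted p = 0.00249) that also passed in all 27. On AT-II it ranged from 5.67 to 6.25 and from 6.25 to 6.65, a difference of 0.46 ± 0.16 (adjusted p = 0.156). Of the HEY family, Hey2 passed on AT-I where Hey1 and Heyl did not, and their differences from each other were not tested.

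Smaller calls on AT-I depended on the processing. Aak1, a kinase of endocytosis, rose by 0.43 ± 0.11 (limma adjusted p = 0.0184), and Egfl7, a secreted protein of endothelium that can bind Notch, by 0.43 ± 0.13 (0.0454). Centring gave 0.27 and 0.28 and a repeated quantile normalization 0.26 and 0.27, and neither passed then. Aak1 also lost the call without AT-I day 2 replicate 1 or 3 or AT-I day 4 replicate 1 (0.39 to 0.41), and Egfl7 without any 1 sample other than AT-I day 2 replicate 2 and AT-II day 2 replicate 1 (0.32 to 0.48). Dll3, a Delta-like protein that does not activate Notch on other cells, fell by 0.55 ± 0.14 (from 5.63 to 5.08; adjusted p = 0.0196), and Hes3, a HES repressor of neural tissue, fell by 0.42 ± 0.12 (from 5.28 to 4.86; 0.0283). Dll3 passed in 18 of 26 alternatives and Hes3 in 19 of 26, and both lost the call with array spread in the model, at -0.30 for Dll3 and -0.35 for Hes3. A repeated quantile normalization gave -0.36 for Dll3, which passed (adjusted p = 0.0254), and -0.21 for Hes3, which did not (0.303). Dll3 lost it without AT-I day 2 replicate 1 or 4 or AT-I day 4 replicate 1, 2 or 4 (-0.54 to -0.46), and Hes3 without replicate 2 or 4 of either AT-I group (-0.42 to -0.36). The narrowest arrays, those of AT-I day 2, gave the higher values of both genes, and the part of array spread in these falls was not tested further.

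Core parts of the pathway gave no call. Dll4, a Delta ligand of vessels, differed between days by 0.01 ± 0.18 on AT-I and 0.20 ± 0.19 on AT-II (limma adjusted p = 0.979 and 0.761). Rbpj, the DNA-binding partner of the receptor domain, differed by -0.31 ± 0.25 and -0.40 ± 0.27 (0.438 and 0.619), and its highest sample, 9.72, was AT-I day 2 replicate 1, the sample with the highest Jag1. Adam10 and Adam17, the proteases of the first cut, differed by 0.34 ± 0.16 and -0.09 ± 0.14 on AT-I (0.193 and 0.677). Adam10 passed in 1 of 27 alternatives, without AT-I day 4 replicate 3 (0.50, 0.0319). Lfng, which adds sugar to Notch, differed by -0.20 ± 0.15, Dlk1, a Delta-like protein of progenitors, by 0.08 ± 0.24, and Nrarp, a Notch target that limits signalling, by -0.25 ± 0.13 on AT-I (0.397, 0.847 and 0.217). Nrarp passed in 2 of 27 alternatives, after centring and after a repeated quantile normalization.

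**Figure D4:**
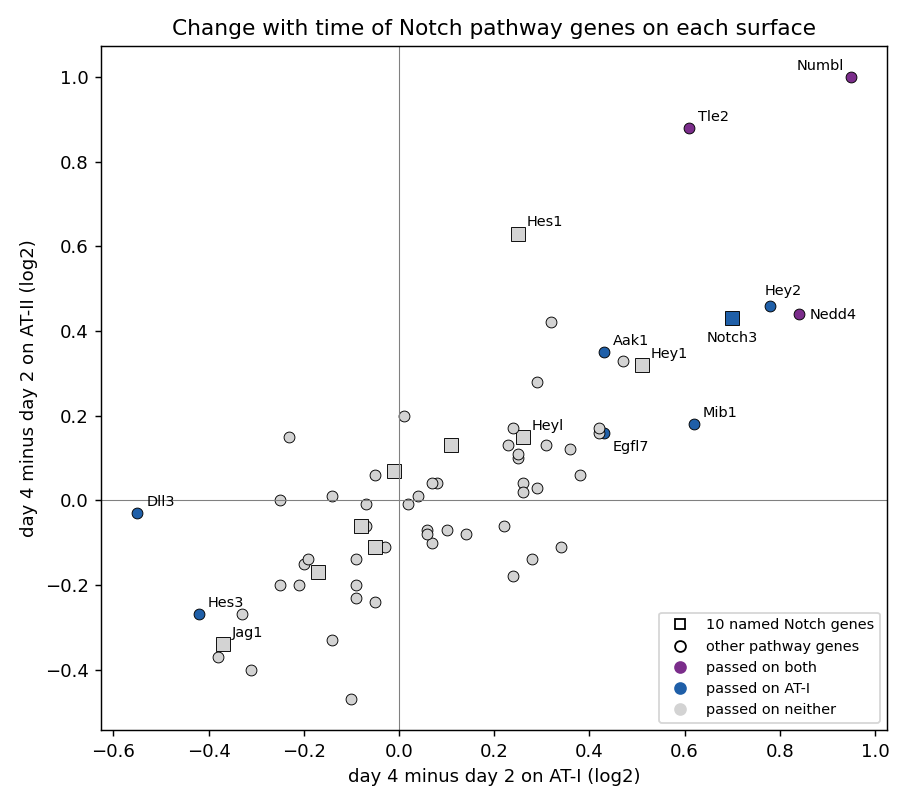
Difference between day 4 and day 2 on AT-I (horizontal axis, log2) and on AT-II (vertical axis, log2) for the 10 genes (squares) and 58 other pathway genes (circles). Colour gives the limma calls; Numbl, Tle2 and Nedd4 passed on both surfaces, at 0.95, 0.61 and 0.84 on AT-I.

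Markers of cell types known to use these genes were read over the same days, in which 8.84% of all genes rose on AT-I and 3.13% on AT-II. Of 11 measured osteoblast markers, 11 rose on AT-I (median difference 2.85) and 10 on AT-II (2.66). Of 11 measured stromal and fibroblast markers, 8 rose on AT-I (median 1.34) and 3 on AT-II (1.19). Of 11 measured mural cell markers, 2 rose on AT-I and 1 on AT-II, with medians of 0.25 and 0.06. Not all moved alike: 8 of the 11 had a positive difference on AT-I and 7 on AT-II. On AT-I samples did not overlap in 3 higher and 1 lower at day 4, beside 11.3% and 4.01% of all genes. With each array centred on its median, 2 were called higher and 1 lower on AT-I. The 2 named next had the smallest p of the list. Rgs5, a pericyte marker, rose by 1.10 ± 0.23 on AT-I (limma adjusted p = 0.00511), and Cspg4, which encodes NG2, by 1.33 ± 0.29 on AT-I (0.0076) and by 1.31 ± 0.31 on AT-II (0.0303). Of 12 measured endothelial markers 0 passed on either surface, with medians of 0.21 and -0.02. The summed log2 level of the mural list was 72.15 to 78.88 in AT-I day 2, 75.94 to 80.13 in AT-II day 2, 78.14 to 80.32 in AT-I day 4 and 77.59 to 82.01 in AT-II day 4. That of the osteoblast list was 74.96 to 89.16, 76.27 to 94.24, 111.73 to 118.54 and 112.22 to 119.31 in the same order. RMA values have no zero, so no marker can be called absent. The part of these cell types in the differences of Notch3, Hes1 and the other genes was not tested.

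**Figure D5:**
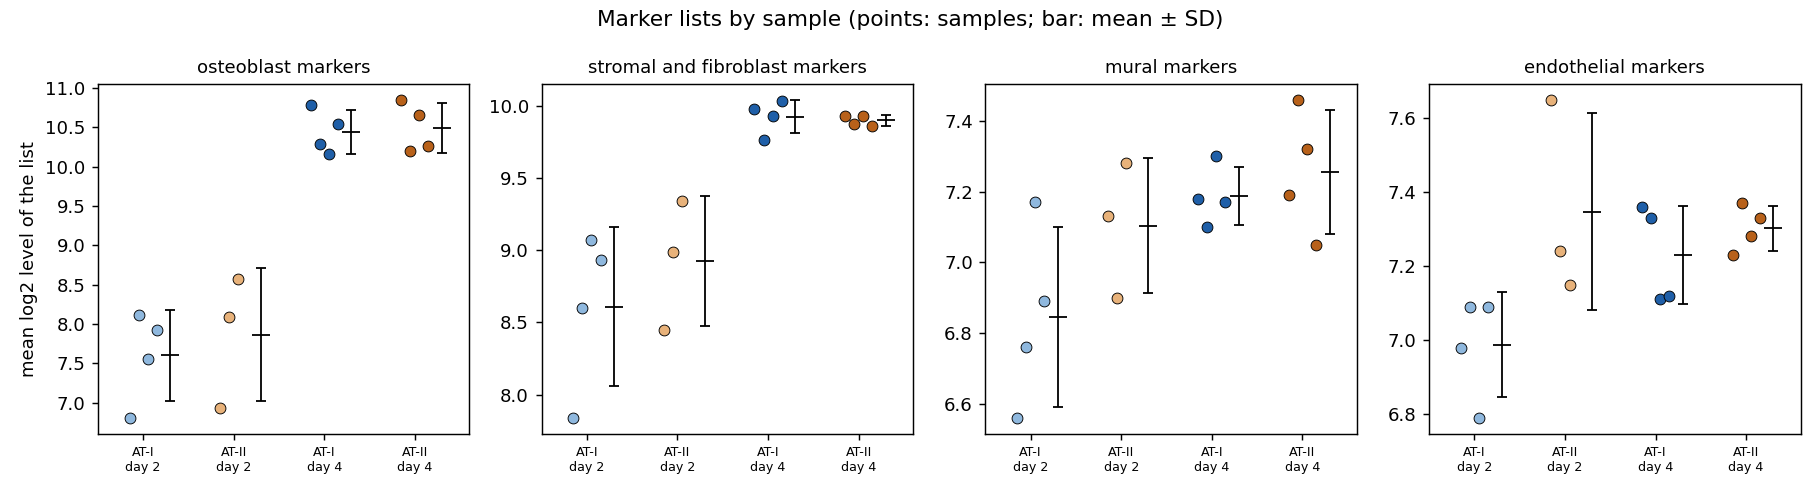
Mean log2 level of 4 lists of cell type markers by sample (vertical axis; its own range in each panel), for the 4 groups on the horizontal axis. Points are samples and bars the mean ± SD; the osteoblast list lies between 6.81 and 8.57 at day 2 and between 10.16 and 10.85 at day 4.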

How the data were processed

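The authors deposited 1 table of 16 arrays whose values, per the submitters' processing notes, were made with RMA in Affymetrix Expression Console and are taken here as log2 expression. The tool versions and the genome build are not given here by any label or header, and the log base is inferred from RMA. The lowest value was 1.82 and the highest 14.01. The platform annotation names 1 gene for 18644 rows, which were kept (962 with several and 9608 with none were left out), and the brightest row stood for each of 879 genes with several.

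A linear model of 4 group means in limma 3.58.1 (lmFit, eBayes, two-sided; R 4.3.3) tested 17245 genes on 15 samples, with Benjamini-Hochberg adjusted p under 0.05. The script was checked on simulated data. The 10 genes, the pathway list and the marker lists were chosen with earlier results of these data known. Named pathway genes were those past the threshold, at most 5 per direction and comparison by smallest p, plus Dll4, Rbpj, Adam10, Adam17, Lfng, Dlk1 and Nrarp; at most 2 markers per list were named. The design counted 16 arrays; averaging AT-II day 2 replicates 2 and 3 is the main setting and all 16 an alternative. Altogether 29 alternative settings were run, 17 of which left out a single sample or array. Testing each row alone, leaving out both day 2 samples numbered 1 and running the alternatives on the other pathway genes were added after seeing the data. No label says which rat a replicate number stands for. Deviations of same-numbered samples correlated at -0.339 to 0.642, so no pairing was used in the main fit. Each rat gave both surfaces, so the surface differences and their intervals treat samples that share a rat as independent. An alternative fit between surfaces blocked the samples by replicate number. Precision is limited by how few arrays each group has. Marker results for chondrocyte, macrophage, osteoclast, neutrophil, erythroid, T cell, B cell, skeletal muscle and adipocyte lists are in the closing section.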

Additional observations from a re-analysis of the deposited data

Results flagged for a closer look

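The lowest AT-I day 2 sample of Dll3, replicate 2 at 5.42, stood apart from the other 3 samples of its group, which lay between 5.69 and 5.71. The gap was 0.915 of the group's range, above Dixon's 95% critical value of 0.829. It was the 1 case among 78 groups of 4 samples tested, where chance gives about 5% per group.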

How the results depend on the processing

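The rise of Notch3 on AT-I passed in 26 of 28 settings; it did not with both rows averaged (0.31) or with the dimmer row (-0.07), which also turned the surface difference at day 2 to 0.37 and the interaction to -0.23. Of 1370 recomputed values of the 10 genes, 12 passed newly, 1 lost its call and 9 turned. The other 1348 include 108 sign changes of differences below their SE, which were given no direction (22 of 50 pairs of gene and comparison).

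Over all genes, calls on AT-I numbered 1314 with array spread as a covariate, 1060 with only the groups compared and 1158 to 2954 without single samples (1158 without AT-I day 4 replicate 4). On AT-II they numbered 1228 with array weights, 334 without both day 2 samples numbered 1 and 223 to 694 without single samples (223 without AT-II day 2 replicate 1). Between surfaces at day 2 they numbered 2193 with 16 arrays, 1 after quantile normalization, 3713 with array weights, 3823 with the replicate block, and 0 to 711 without single samples (711 without AT-I day 2 replicate 2). Of the calls on AT-I, 76.9% were higher in the main fit, 39.7% after centring and 65.6% after quantile normalization; on AT-II these were 93.9%, 72.2% and 88.6%, and with array spread as a covariate 81.1%.

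Of the 10 genes, those called on AT-I numbered 2 after quantile normalization and with array weights, 0 with rows averaged and 1 to 2 without single samples. On AT-II they numbered 1 with 16 arrays, with genes of a mean under 6 left out, with array weights, with the spread covariate and with only the groups compared, and 0 to 1 without single samples. At day 2 between surfaces they numbered 1 with array weights and with the replicate block. Of the other pathway genes, 5 were called on AT-I with only the groups compared; on AT-II 1 without both samples numbered 1 and 1 to 3 without single samples; and between surfaces at day 2, 7 with 16 arrays, 12 with array weights, 11 with the replicate block and 0 to 2 without single samples.

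At day 2 between surfaces, quantile normalization turned Notch1 (0.05), Notch2 (0.07), Aak1 (0.07), Hes3 (-0.06), Adam17 (0.00) and Lfng (0.05), and the spread covariate turned Notch2 (0.02). On AT-I, Jag1 was 0.05 with the spread covariate and 0.03 without both samples numbered 1 (-0.62 to 0.03 without single samples), and Rbpj was 0.02 without both (-0.48 to 0.02). The cause was not tested in any of these cases.

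Replicate numbers did not pair all of the samples. Correlations of deviations between same-numbered samples were 0.642, 0.505, -0.258 and 0.153 at day 2 and 0.131, -0.339, 0.468 and 0.201 at day 4. The replicate block, fitted between surfaces with 16 arrays, called Notch3 (-0.41, adjusted p = 0.0393), Mib1 (-0.51, 0.0244) and Nedd4 (-0.40, 0.0298) at day 2. Not every sample correlated best with its own number: AT-I replicate 3 reached 0.556 with AT-II replicate 4 at day 2. AT-II replicate 3 at day 2, one of the averaged pair, reached 0.533 with AT-I replicate 2. Which samples shared a rat was not settled by these values. Between days no paired analysis was possible because the days came from different rats. Dll1, Dll3 and Hes3 have no value with genes of a mean under 6 left out.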

Other observations

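Between day 2 and day 4, of 7 measured chondrocyte markers, 1 rose on AT-I and 2 on AT-II (median differences 0.15 and 0.22). Acan, which encodes aggrecan, rose by 1.27 ± 0.31 and 1.29 ± 0.33 (SE; limma adjusted p = 0.0146 and 0.045). Of 6 measured osteoclast markers, 2 rose on AT-I and 0 on AT-II (medians 0.60 and 0.56). The mean level of the list was 7.22 to 8.11 at day 2 and 8.31 to 9.17 at day 4 on AT-I, and 7.34 to 8.15 and 8.39 to 8.82 on AT-II. Ctsk, which encodes cathepsin K, rose by 1.99 ± 0.49 and Atp6v0d2, a proton pump subunit, by 2.18 ± 0.57 on AT-I (limma adjusted p = 0.0151 and 0.0218). Of 12 macrophage markers, 1 rose and 1 fell on AT-I (medians 0.02 and -0.05). Of 12 neutrophil markers, 1 fell on AT-I and 0 changed on AT-II (medians -0.36 and -0.35). Csf3r, a receptor of granulocyte growth factor, fell by 0.92 ± 0.21 on AT-I (limma adjusted p = 0.00907). Of 7 erythroid (medians -0.18 and -0.40), 10 T cell (0.07 and 0.08), 6 B cell (-0.10 and 0.20), 7 skeletal muscle (-0.32 and 0.00) and 8 adipocyte markers (-0.10 and 0.18), 0 passed on either surface.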
